A study of Mus musculus with 4 samples.

Results

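The genes that encode the main axon guidance ligands and receptors were examined in the otocyst of mouse embryos that lost Tbx2 and Tbx3. They were chosen by the gene name of the array probe: semaphorins (Sema3 to Sema7), plexins, neuropilins, Slits and Robo receptors, netrins with Dcc, Neo1 and the Unc5 receptors, and ephrins with the Eph receptors. This took in 70 genes with 92 probes, of 31694 genes or unnamed targets on the array, and 61 of the 70 were bright enough to be tested, as were 18416 in all. The prefix for the Unc5 receptors also took in Unc5cl, a relative that is not a netrin receptor, and it is counted but not placed in a family. Otocysts were dissected by hand from NMRI embryos at E10.5. The mutants, abbreviated Tbx2/3cDKO, carried Pax2-cre and were Tbx2(fl/fl) and Tbx3(fl/fl): the floxed alleles of these T-box transcription factor genes are recombined by a cre driven from Pax2 regulatory sequence, which acts in the otic placode and also outside the ear. Controls were labelled Tbx2(fl/?);Tbx3(fl/?), with no cre in the label and the number of floxed copies not settled by it. Each of 4 arrays compared 1 mutant with 1 control RNA of the same sex, with female pairs on replicates 1 and 2, male pairs on 3 and 4, and a dye swap inside each sex.

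Guidance ligands steer growing axons and migrating cells by binding receptors on their surface that reorganise the cytoskeleton. Secreted class 3 semaphorins act through neuropilins paired with plexins, the membrane-bound semaphorins mostly bind plexins directly, Slits bind Robo receptors, and netrins attract through Dcc and Neo1 or repel through Unc5 receptors. Ephrins are themselves anchored to the membrane, so they and the Eph receptors signal between touching cells. The otocyst is the epithelial vesicle that forms the inner ear and the neurons of its ganglion. Several of these families also pattern blood vessels, and netrin 1 takes part in shaping the semicircular canals.

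Tbx3 had log2 ratios of mutant over control of -3.38, -3.48, -3.61 and -3.25 on replicates 1 to 4, a 10.8-fold fall (limma adjusted p = 4.21e-06). The Tbx2 probe gave 0.06 ± 0.23 (SD over 4 arrays, limma adjusted p = 0.65), and the sources used here do not say which part of Tbx2 is deleted, so it does not check that deletion. On each array 58.4% to 63.2% of spots were well above background. Precision is limited by having 4 arrays. The labels do not tell separate animals from pools, so the p-values reflect no more than the spread between these RNA pairs, possibly technical. Probes of all 15 otic epithelium markers examined were bright enough to be tested, but 12 were lower and 1 higher in the mutant (median log2 ratio -0.65). Most lists for other cells in the dissected tissue went the other way. Higher were 13 of 13 tested endothelial, 13 of 15 erythroid, 11 of 15 periotic mesenchyme and 6 of 10 macrophage genes, and none lower. Their median log2 ratios were 0.66, 1.05, 0.32 and 0.33. Hindbrain markers, 5 of them tested, had 1 higher and 1 lower, with a median of -0.02. The neuronal markers are those of otic neuroblasts and early neurons, a lineage that the otocyst itself forms. Of these, 16 of 19 were higher and none lower, with a median of 1.05. Of all tested genes, 13.5% were higher and 10.1% lower. In bulk RNA, fewer cells of a type and less RNA per cell cannot be told apart, and these lists are given again beside the guidance genes they touch.

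Guidance genes changed in both directions, in larger shares than all tested genes. Of the 61 tested, 18 (29.5%) were higher in the mutant at a limma adjusted p under 0.05, where 13.5% of all tested genes were, and 12 (19.7%) were lower, where 10.1% of all genes were. Most changes were small. At least 1.5-fold was reached by 6 of those higher: Ntn1, Sema3g, the Dcc probe, Sema3c, Sema5a and Robo2. It was also reached by 2 of those lower (Sema3b and Unc5cl). Of all genes, 3.35% were called and that much higher and 1.92% called and that much lower. The median log2 ratio of the 61 was 0.08, against 0.00 for all genes, and their median size of change was 0.19 against 0.09. Ligands were higher in 11 and lower in 5 of 33 tested, receptors higher in 7 and lower in 6 of 27. Leaving out replicate 1 left 14 higher and 6 lower (32.8% called in either direction, beside 15.3% of all genes). Leaving out replicate 3 left 14 higher and 7 lower (34.4% called in either direction, beside 14.0% of all genes). Another 9 genes were too dim to test: Epha6, Ntn5, Plxnb3, Robo3 and Unc5d were well above background in no channel, and Epha8, Epha10, Ntn4 and Unc5a in at most 2 of the 4 arrays of a genotype.

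**Figure D1:**
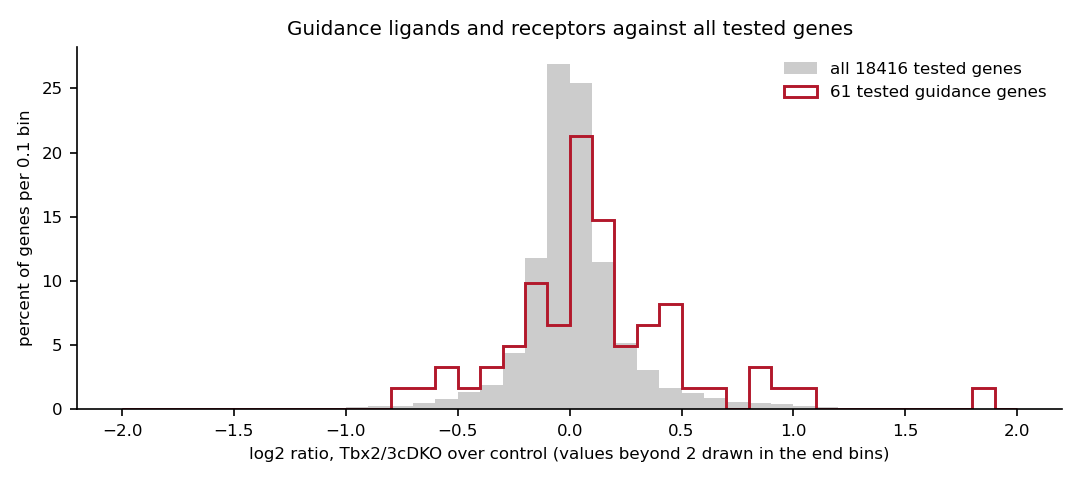
Distribution of the log2 ratio of Tbx2/3cDKO over control for the 61 tested guidance genes (red line) and for all 18416 tested genes (grey), as percent of genes in bins 0.1 wide. The guidance genes are spread more widely, from -0.76 for Sema3b to 1.81 for Ntn1, with a median of 0.08.

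The probes of 5 of these genes held a tandem repeat of at least 20 bases, and what they report cannot be assigned to the named gene from these data. The other member probes had no run longer than 13 bases of a repeated unit of up to 4 bases. The stretches of 30 bases that hold or enter the repeat are printed, with the repeat in capitals. Whether the repeat sets the values of these probes was not tested.
Dcc probe, bases 1 to 30: gaaaaagatGAAGAAGAAGAAGAAGAAGAA
Ephb3 probe, bases 19 to 48: gccagagacTGTGTGTGTGTGTGTGTGTGT
Sema4c probe, bases 1 to 30: aaTGTGTGTGTGTGTGTGTGTGTGTtgtaa
Epha5 probe, bases 23 to 52: catcgaaatTGTGTGTGTGTGTGTGTGTGc
Sema6d probe, bases 31 to 60: agaggggcgaGTGTGTGTGTGTGTGTGTGT

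The Dcc probe carried 51 bases of GAA repeat and was the only 1 of the 92 probes that the files place on another chromosome than its gene, at chr7:68417162-68417221 (mm9, minus strand). Its log2 ratios were 1.21, 1.18, 0.77 and 0.72 on replicates 1 to 4, higher in the female than in the male pairs. Another 40 probes of other genes with a GAA run of 20 bases or more had a median log2 ratio of 0.96, and 38 of the 40 were called higher. Their medians on the 4 arrays were 1.21, 1.16, 0.77 and 0.65, the same pattern as that of the Dcc probe. The remaining Dcc probes were not well above background on more than 1 array, so Dcc itself has no usable value here.

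The probes of Ephb3, Sema4c, Epha5 and Sema6d carried between 20 and 33 bases of TG repeat and also behaved like repeat probes of unrelated genes. Ephb3 had log2 ratios of 0.18, 0.20, 0.20 and -0.25 on replicates 1 to 4, and Sema4c had 0.22, 0.16, 0.18 and -0.26. Of the 48 kept TG repeat probes of other genes, 48 were above 0 on replicates 1 to 3 and below 0 on replicate 4, with array medians of 0.15, 0.17, 0.19 and -0.25. None of these 52 probes was called, the 4 of guidance genes included. On their other kept probes, without a repeat, Sema6d had 0.17 (limma adjusted p = 0.0689), not called. The other kept probe of Epha5 was well above background on 4 arrays in the mutant and 0 in the control, so it passed the filter through the mutant alone. With the 5 repeat probes and Unc5cl left out, 57 genes remained, 17 higher and 11 lower, with a median log2 ratio of 0.12. Hemgn of the erythroid list and Eya1 of the otic epithelium list were also read by TG repeat probes and were not called.

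**Figure D2:**
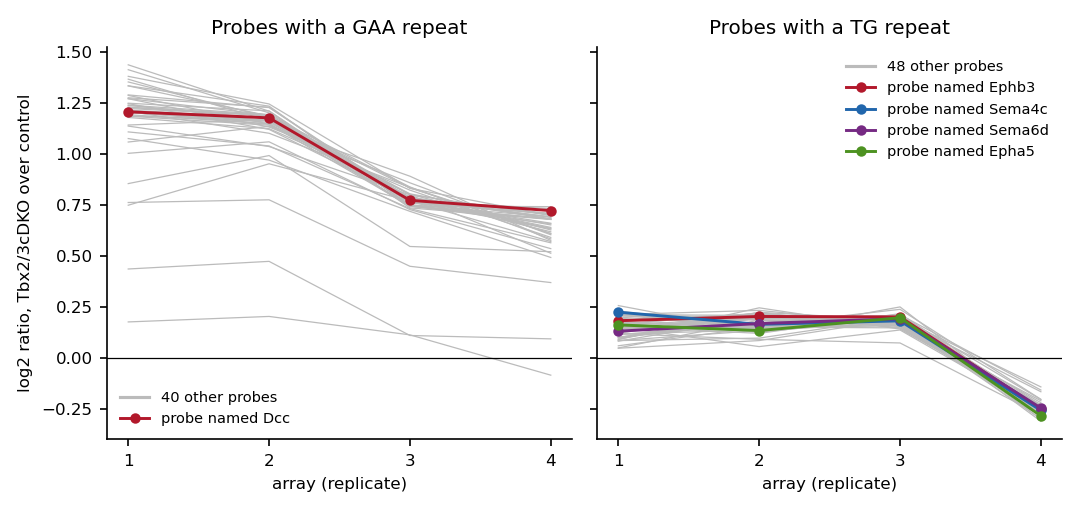
Log2 ratio of Tbx2/3cDKO over control on each of the 4 arrays for probes with a GAA repeat (left) or a TG repeat (right) of at least 20 bases; coloured lines are probes named for guidance genes and grey lines the other kept probes of the same repeat. The Dcc probe follows the 40 other GAA probes, and the Ephb3, Sema4c, Epha5 and Sema6d probes follow the 48 other TG probes, all below 0 on replicate 4.

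Netrin 1 had the largest change of all the guidance genes, and the tested Unc5 receptors moved the other way. Ntn1, the secreted netrin that attracts or repels axons and also acts on basement membranes, had log2 ratios of 1.94, 1.79, 1.88 and 1.62 on replicates 1 to 4. It was thus high in the mutant on every array, and the log2 channel levels did not overlap, the lowest in the mutant being 10.4 and the highest in the control 8.87. On average it was 3.50-fold higher, at 1.81 ± 0.14 (SD, n = 4 arrays; SE in limma 0.05, adjusted p = 8.87e-06). Its probe maps to chromosome 11, 68022986 to 68023045 (mm9), and the other Ntn1 probe was below background. Ntn3, the other netrin bright enough to test, had a log2 ratio of 0.10 ± 0.19 and was not called (adjusted p = 0.42).

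Of the netrin receptors, Unc5b and Unc5c, which mediate repulsion, were lower, with log2 ratios of -0.36 and -0.38. Unc5c was lower on both of its probes (-0.38 and -0.31). Unc5b was below 0 on every array but far lower on replicate 4, at -0.72, than on the others, at -0.26 to -0.19. Neo1, which binds netrins and the RGM proteins, had 0.19 ± 0.11, above 0 on all arrays but not called (adjusted p = 0.0649). Unc5cl, the relative that binds no netrin, had log2 ratios of -0.67, -0.67, -0.67 and -0.53 on replicates 1 to 4. It was low in the mutant on every array, 1.55-fold, with channel levels that did not overlap (limma adjusted p = 0.000288). Unc5b lost its call when replicate 1 or 3 was left out.

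In the Slit and Robo families only Robo2 was called. Robo2, a receptor through which Slits repel axons, had log2 ratios of 0.48, 0.67, 0.67 and 0.70 on replicates 1 to 4. Every array was above 0, replicate 1 lowest, and the log2 levels of 9.91 to 10.3 in the mutant lay above the 9.39 to 9.62 of the control. The mean was 0.63 ± 0.10 (SD, n = 4 arrays), 1.55-fold, with a limma adjusted p of 0.000391, and a weaker second probe gave 0.40. Robo1, its neighbour 848 kb away on chromosome 16 (mm9), had 0.00 ± 0.13. The Slits, their secreted ligands, had log2 ratios of 0.20 (Slit1), 0.09 (Slit2) and -0.10 (Slit3), none called. Slit3 ranged from -0.60 on replicate 4 to 0.22 on replicate 1, so its arrays did not have 1 direction.

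**Figure D3:**
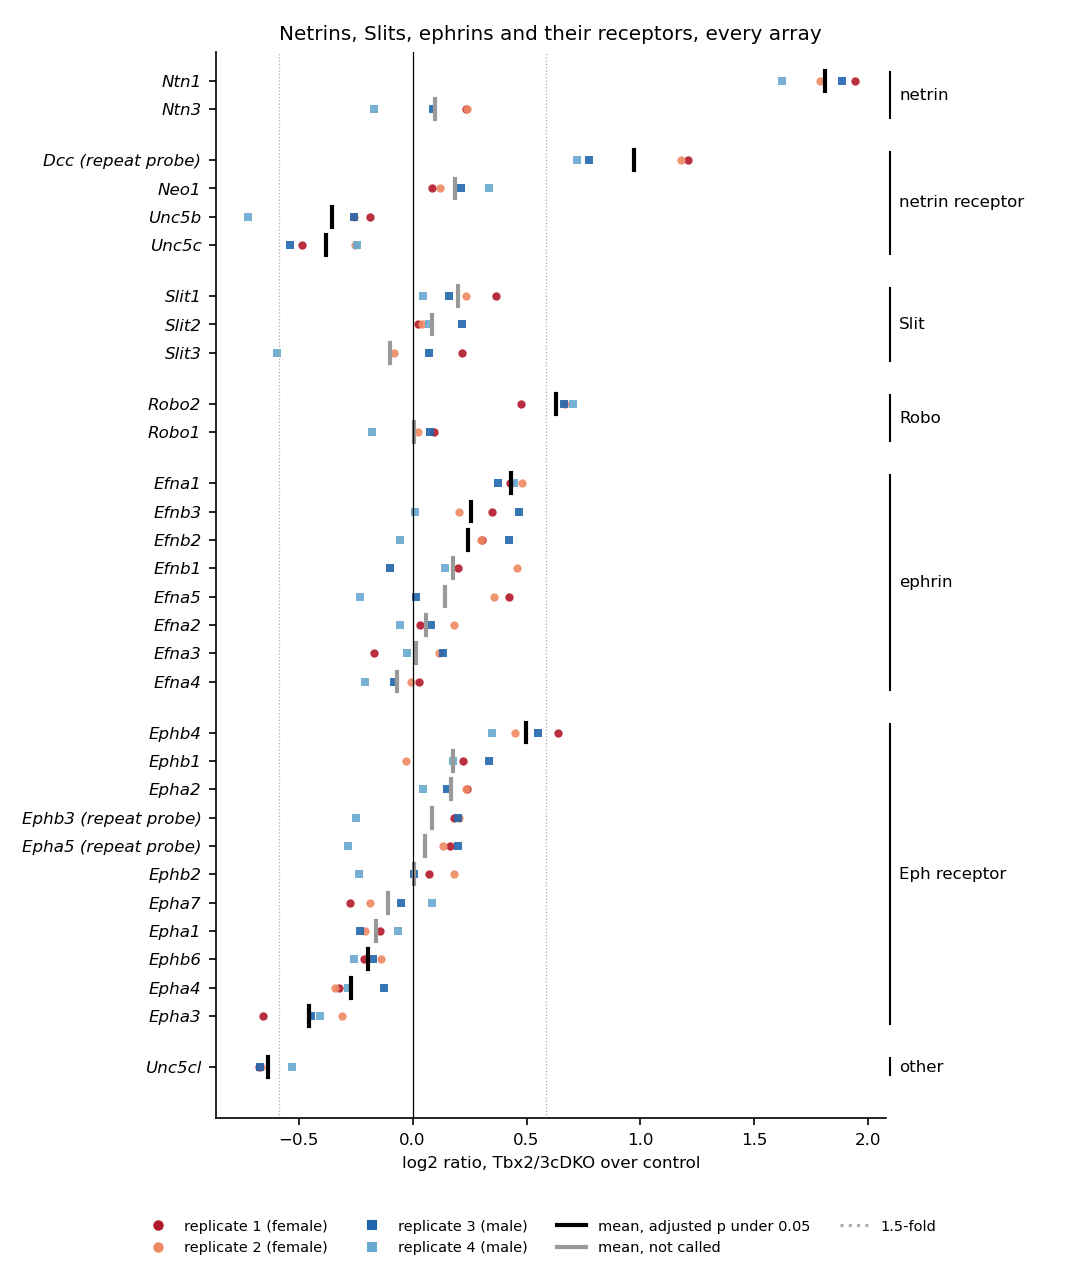
Log2 ratio of Tbx2/3cDKO over control on each of the 4 arrays (circles, female pairs; squares, male pairs) for the tested netrins, Slits, ephrins and their receptors, and for Unc5cl, with the mean as a bar, black where the limma adjusted p is under 0.05. Ntn1 stands at 1.81 on the mean while Unc5b and Unc5c lie below 0; ephrins called are above 0 and 3 of the 4 Eph receptors called are below 0.

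All 20 semaphorins were tested, and 7 (35%) were higher and 5 (25%) lower, beside 13.5% and 10.1% of all tested genes. The secreted class 3 moved most, with 3 higher and 2 lower of 7. Sema3g, which signals through neuropilin 2 and is made by arterial endothelium, had log2 ratios of 1.11, 1.24, 1.06 and 0.94 on replicates 1 to 4. These gave a mean of 1.08 ± 0.12 (SD, n = 4 arrays), 2.12-fold, with a limma adjusted p of 8.51e-05. The mutant levels of 9.89 to 10.2 lay above all control levels, 8.95 to 9.18. Sema3c, a neuropilin ligand known from heart outflow tract and vessel development, had 0.47, 0.86, 0.92 and 1.25. Its arrays were all above 0 but spread widely, lowest on replicate 1 and highest on replicate 4 (mean 0.88 ± 0.32, 1.83-fold, limma adjusted p = 0.000926). The second Sema3c probe rose by less, 0.47. Sema3f, a neuropilin 2 ligand that repels axons, was also higher, at 0.53, with replicate 4 at 0.19 and the others at 0.55 to 0.70.

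Sema3b went down on the same chromosome where Sema3f went up. Sema3b, a secreted repellent, had log2 ratios of -0.80, -0.76, -0.78 and -0.69 on replicates 1 to 4. All 4 arrays lay within a narrow range (mean -0.76 ± 0.05, SD, n = 4 arrays), a 1.69-fold fall with a limma adjusted p of 0.000119. Mutant levels, at most 9.96, were below every control level. The Sema3b and Sema3f probes lie 83.1 kb apart on chromosome 9 (mm9). Sema3d was lower by a small amount, at -0.18, a call that was lost when any of the replicates was left out, with no background correction, with median centring and with no filter on dim probes. Sema3a, the classical collapsing factor of growth cones, had 0.18 ± 0.26 and ran from -0.13 on replicate 1 to 0.49 on replicate 4, and Sema3e, a plexin D1 ligand, had -0.13 ± 0.09. Neither was called.

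Among the 13 membrane-associated semaphorins of classes 4 to 7, 4 (30.8%) were higher and 3 (23.1%) lower, beside 13.5% and 10.1% of all tested genes. Sema5a, a thrombospondin-repeat semaphorin that attracts or repels axons according to context, had log2 ratios of 0.86, 0.89, 0.97 and 0.77 on replicates 1 to 4. Mutant levels of 11.7 to 11.8 lay above control levels of 10.8 to 11.0, with a mean log2 ratio of 0.87 ± 0.08 (SD, n = 4 arrays), 1.83-fold, and a limma adjusted p of 9.31e-05. Sema5b, the other gene of that class, had 0.12 ± 0.25 and was not called. The other rises were in Sema4g (0.41), Sema7a (0.36), which is anchored by a lipid and binds plexin C1 and integrins, and Sema6a (0.31). Sema4g was at 0.05 on replicate 4 and at 0.34 to 0.71 on the others. The falls were in Sema4d (-0.56, from -0.77 to -0.41 on the arrays), a plexin B1 ligand, Sema6b (-0.25) and Sema4b (-0.24). Sema6b and Sema4b lost their calls without replicate 1, 3 or 4 and with median centring, Sema4b also with the scanner software's ratios, the series value table and an intensity trend, and Sema6a without replicate 1. The 6 not called had log2 ratios from 0.06 to 0.12, and all 6 were below 0 on replicate 4 and above 0 on the others. Sema4c and Sema6d among them were read by TG repeat probes, whose values cannot be assigned to these genes. The other kept Sema6d probe, at 0.17, was above 0 on every array.

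Of the semaphorin receptors, 3 of 8 tested plexins (37.5%) and 1 of 2 neuropilins were higher, and 1 plexin (12.5%) was lower. Of all tested genes, 13.5% were higher and 10.1% lower. Plxnd1, the receptor of endothelial cells for Sema3e, had 0.43, with replicate 4 at 0.05 and the others at 0.46 to 0.62. The second Plxnd1 probe gave 0.29 ± 0.29 and was not called. Plxnc1, the Sema7a receptor, had 0.40, but its second probe had 0.16 ± 0.06 and was not called. Plxna2, a partner of neuropilins and a receptor for Sema6a, had 0.32. Plxna4, another plexin that pairs with neuropilins, fell, with -0.52, from -0.72 to -0.34, and its mutant and control levels did not overlap. Nrp1, which binds class 3 semaphorins and vascular endothelial growth factor, had 0.35, between 0.20 and 0.46 on the 4 arrays. The brighter Nrp2 probe gave -0.14 ± 0.17 (not called), while the dimmer gave -0.44 ± 0.12, called when all kept probes were tested together (limma adjusted p = 0.00263). With the mean of kept probes in place of the brightest, Nrp2 was called lower, at -0.29. Plxnb1, the Sema4d receptor, ran from -0.56 on replicate 4 to 0.47 on replicate 1 and was not called. Plxnd1 lost its call without replicate 1 or 3, and Plxna2 without replicate 3.

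**Figure D4:**
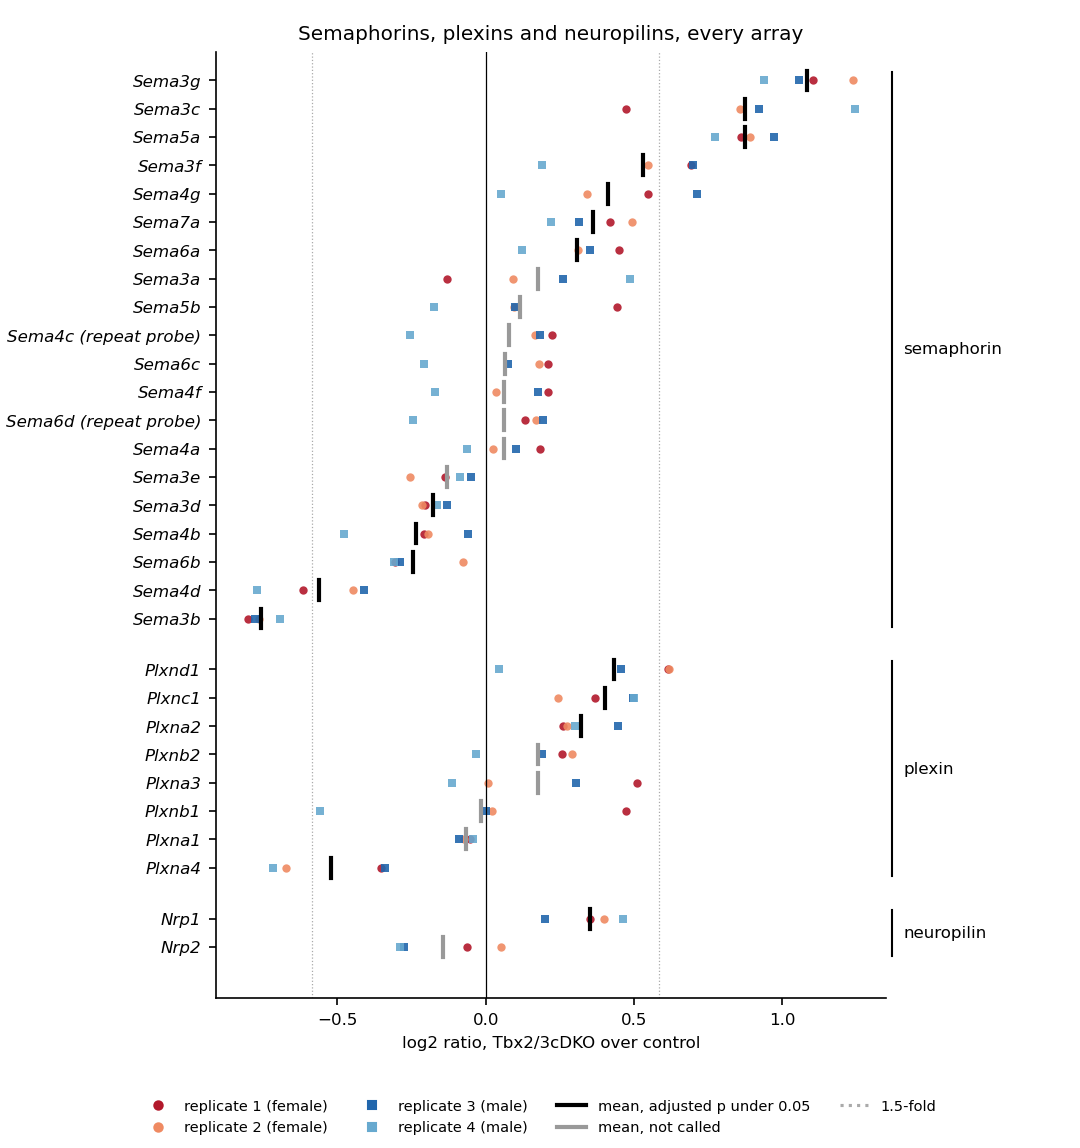
Log2 ratio of Tbx2/3cDKO over control on each of the 4 arrays (circles, female pairs; squares, male pairs) for the 20 semaphorins, 8 tested plexins and 2 neuropilins, with the mean as a bar, black where the limma adjusted p is under 0.05. Sema3g, Sema3c and Sema5a lie to the right of the 1.5-fold line and Sema3b to the left; of the genes with a grey bar near 0, most have replicate 4 as their lowest array.

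All 8 ephrins were tested, and 3 (37.5%) were higher and 0 lower, beside 13.5% and 10.1% of all tested genes. Of these calls only that of Efna1 held in every alternative, so they do not give the family a direction. Efna1, an ephrin-A that is also induced in vessels, rose on average by 0.43 ± 0.04 on the log2 scale (SD, n = 4 arrays; adjusted p in limma 0.0011), between 0.38 and 0.48 on the 4 arrays. Efna3 and Efna4, whose probes lie 43.2 kb from that of Efna1 and 19.1 kb from each other on chromosome 3 (mm9), had 0.02 and -0.07. The transmembrane ephrins Efnb3 and Efnb2 had 0.26 and 0.24. Both calls were weak: Efnb3 was 0.01 on replicate 4 and Efnb2, the ephrin of arteries, was -0.05 there, both calls were lost without replicate 1, 2 or 3, and Efnb2 lost its call under most other settings too. Efnb1 had 0.18 ± 0.23 and Efna5 0.14 ± 0.31, not called, and Efna5 was at 0.36 to 0.42 in the female pairs and -0.23 to 0.01 in the male pairs.

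Of 11 Eph receptors tested, Ephb4 was higher (9.09%), and Epha3, Epha4 and Ephb6 were lower (27.3%). Among the 11, Ephb3 and Epha5 were read by TG repeat probes, so their values here cannot be assigned to these genes. The shares of all tested genes were 13.5% higher and 10.1% lower, and so few calls do not give the family a direction. Ephb4, the receptor of veins that binds ephrin-B2, had 0.50, above 0 on every array, but its second probe had 0.14 ± 0.18 and was not called. Epha3, an ephrin-A receptor, had -0.45, between -0.66 and -0.31. Epha4, which binds both ephrin classes and guides spiral ganglion and motor axons, had -0.27. Ephb6, which lacks kinase activity, had -0.20 on all arrays below 0, a call lost without replicate 1, 3 or 4 and with median centring, and that of Epha4 was lost without replicate 1. Epha7 had -0.11 ± 0.16 on its brightest probe, not called, and -0.17 and -0.22 on the other kept probes, of which the latter was called. The log2 ratios of the other receptors not called ran from -0.16 for Epha1 to 0.18 for Ephb1.

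Several of the genes that rose are also expressed in blood vessels, and endothelial markers rose in the same RNAs. The log2 of the summed level of the endothelial markers was 15.1 to 15.2 in the mutant and 14.5 to 14.7 in the control, and all but Erg, which was below background in every channel, were tested. Pecam1, a junction protein of endothelium, had 0.66, Cdh5 0.71 and Kdr, the main receptor of vascular endothelial growth factor, also 0.66. Beside these stand Plxnd1 at 0.43 (0.29 on its second probe) and Ephb4 at 0.50 (0.14 on its second probe). With them stand Sema3g at 1.08, Nrp1 at 0.35, Efnb2 at 0.24 and Efna1 at 0.43. These guidance genes were picked from those that rose, so they do not show how vessel genes of these families moved as a set. Unc5b and Nrp2, which are not in this list, were not higher, at -0.36 and -0.14. The part of endothelial cells in these values was not tested. The summed erythroid level was 20.1 to 20.2 in the mutant and 18.5 to 19.2 in the control, that of neuronal markers 15.8 to 16.0 and 15.1 to 15.2, of mesenchyme 17.1 to 17.2 and 16.6 to 16.8, of macrophages 12.4 to 12.9 and 12.1 to 12.3, and of otic epithelium 16.9 to 17.1 and 17.8 to 18. Hindbrain markers, 5 of 12 tested, had 1 higher and 1 lower, with Pax7 and Olig3 among those below background everywhere and summed levels of 12.2 to 12.4 and 12.1 to 12.3. The part of these cells in the guidance genes that rose, among them Robo2, Sema5a and Ntn1, and of otic epithelium in those that fell, was not tested either.

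**Figure D5:**
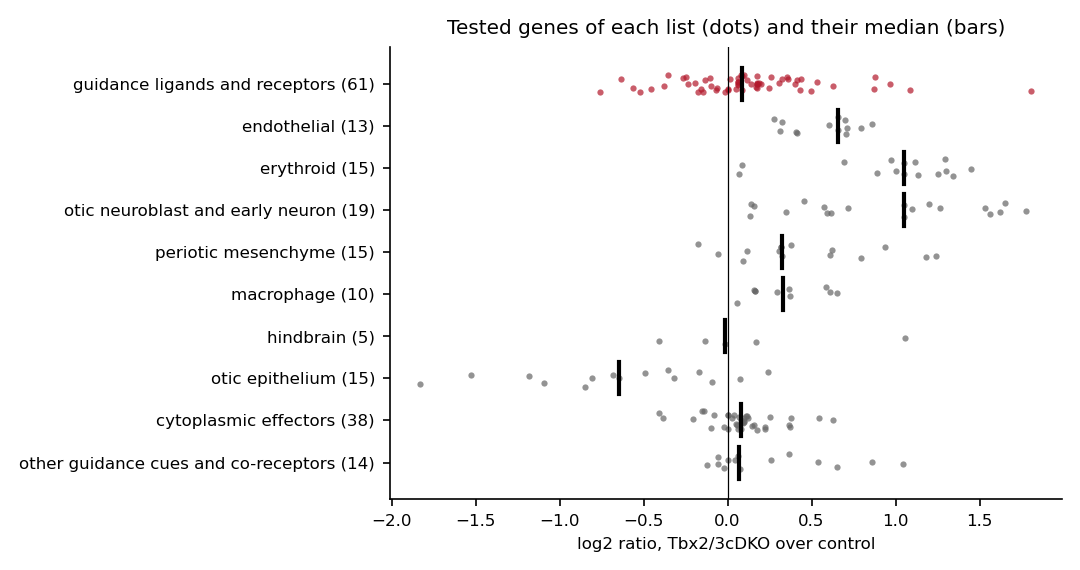
Log2 ratio of Tbx2/3cDKO over control for each tested gene (dots, vertical scatter added for legibility) of the guidance genes, the marker lists and the 2 other pathway lists, with the number of tested genes in brackets and the median as a bar. The guidance genes, with a median of 0.08, are spread on both sides of 0, while endothelial, erythroid and neuronal markers lie above 0 (medians 0.66, 1.05 and 1.05) and most otic epithelium markers below (median -0.65).

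Of 40 cytoplasmic effectors listed, 38 were tested, and 8 (21.1%) were higher and 2 (5.26%) lower, beside 13.5% and 10.1% of all tested genes, with a median log2 ratio of 0.08. Trio, a guanine nucleotide exchange factor downstream of Dcc, had 0.63 ± 0.27 (SD, n = 4 arrays). Crmp1, a collapsin response mediator, had 0.54 ± 0.11, and Nck2, an adaptor between receptors and the actin machinery, 0.38 ± 0.08. Srgap3, a GTPase-activating protein that binds Robo receptors, was lower at -0.38 ± 0.22. Without replicate 1, 5 effectors were higher, where 15.3% of all genes were called in either direction. Of 18 other cues and co-receptors, 14 were tested, 6 (42.9%) were higher and 0 lower by limma, beside the same 13.5% and 10.1%, with 1 called lower without replicate 1. They included Celsr3, a cadherin of axon tract formation, at 1.04 ± 0.26, Robo4, the endothelial Robo and also a gene of the endothelial list, at 0.86 ± 0.09, Rgmb, a ligand of Neo1, at 0.65 ± 0.22, and Flrt2, an Unc5 ligand, at 0.54 ± 0.11.

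RefSeq promoters (GRCm38.p6, 250 bases before the transcription start) were matched by symbol for 60 of the 70 genes, with 76 windows. No promoter was available for Ntn1 and Sema3b, the guidance genes with the largest rise and fall, so they were not searched. The same holds for Dcc, Efnb3, Plxna1, Plxna4, Sema3f, Sema6a, Slit1 and Unc5d. The core of the T-box binding sequence, GGTGTG on either strand, was found in 16 of the 60 genes (26.7%), against 18.3% of 27025 genes in the table. It was present in 4 of 13 higher, 2 of 10 lower and 10 of 29 tested genes that were not called. The longer AGGTGTGA was in none of the 60, against 1.3% of all genes. Among the genes with a promoter, the windows of the most changed in each direction that hold the core and belong to a guidance family are printed. The core is in capitals, where CACACC is its reverse complement. In Sema3g it starts at position -217 from the transcription start, in Sema5a at -216, and in the Sema4d window shown, 1 of its 3, at -23. A match is a description of these letters and not evidence of binding.
Sema3g, chr14:31217623-31217872, plus strand: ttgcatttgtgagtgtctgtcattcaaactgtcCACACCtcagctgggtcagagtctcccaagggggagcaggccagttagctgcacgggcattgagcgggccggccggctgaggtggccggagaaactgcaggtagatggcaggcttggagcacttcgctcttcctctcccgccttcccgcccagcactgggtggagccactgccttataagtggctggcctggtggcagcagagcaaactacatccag
Sema5a, chr15:32244563-32244812, plus strand: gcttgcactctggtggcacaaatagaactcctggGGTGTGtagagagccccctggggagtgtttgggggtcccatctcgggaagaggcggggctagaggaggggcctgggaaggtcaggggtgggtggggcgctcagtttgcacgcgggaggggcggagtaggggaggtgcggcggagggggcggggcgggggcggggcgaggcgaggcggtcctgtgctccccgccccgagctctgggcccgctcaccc
Sema4d, chr13:51756684-51756933, minus strand: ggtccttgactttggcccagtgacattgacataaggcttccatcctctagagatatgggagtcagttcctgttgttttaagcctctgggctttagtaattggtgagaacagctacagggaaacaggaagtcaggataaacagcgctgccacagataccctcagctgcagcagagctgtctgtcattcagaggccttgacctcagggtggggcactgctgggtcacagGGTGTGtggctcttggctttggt

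Replicate 4 stood apart for these genes. The median log2 ratio of the 61 was 0.21, 0.13 and 0.15 on replicates 1 to 3 and -0.06 on replicate 4, where 41.0% of them were above 0 against 68.9% on each of the others. The median of all genes stayed between -0.00 and 0.01 on every array. A value above 0 on replicates 1 to 3 and below 0 on replicate 4 was found in 17 of the 61 (27.9%), 4 of them on TG repeat probes, and in 1450 of 18409 genes with values on all arrays (7.88%). Without the repeat probes and Unc5cl the array medians were 0.21, 0.12, 0.14 and -0.04. Without replicate 4, 23 guidance genes were higher and 8 lower, and Efna5, Efnb1, Epha2, Plxnb2 and Slit1 gained a call. In that setting 50.8% of guidance genes and 21.9% of all genes were called in either direction.

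No guidance gene was called for a difference between the sexes in the response to the mutation, by limma's interaction term (0 of 61, smallest adjusted p = 0.121, and 0.0109% of all genes called). At an unadjusted p under 0.05 there were 13 of 61, and 2863 of all 18416 genes. With each array centred on its median in place of loess, 2 were called, where 555 genes were called in all. Sema3c had means of 0.62 in the female and 1.16 in the male pairs, a difference of 0.54 (limma adjusted p = 0.0199), and Sema3a had -0.04 and 0.44 (0.0413). The design leaves 1 residual degree of freedom for this term.

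Of the 30 called genes, 19 kept their call and direction in all 13 alternatives: Ntn1, Sema3b, Sema3c, Sema3f, Sema3g, Sema4d, Sema4g, Sema5a, Sema7a, Plxna4, Plxnc1, Nrp1, Robo2, Unc5c, Efna1, Epha3, Ephb4, Unc5cl and the Dcc probe. None of the 30 reversed in any of them. Several kept probes were available for 11 genes, and in 0 of them did the probes differ in sign.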

How the data were processed

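RNA of E10.5 otocysts was measured on 4 Agilent 2-colour arrays, each with 1 Tbx2/3cDKO and 1 control RNA. The guidance genes and gene lists were chosen with earlier results of these data known. The intensity of each spot and of its surroundings is that of the scanner files, made, per the file headers, with Agilent Feature Extraction 10.7.3.1. The log10 ratios of red over green were written by the same software, per the file headers. The authors deposited a value table of signed fold ratios, treated here as a score and used only in an alternative. On the log2 scale these deposited values were within 0.001 of the scanner ratios for 90.8% to 93.3% of 39429 probes, with column medians of 1. What was done to the others is not stated.

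Signals were background-corrected (normexp, offset 50) and the log2 ratios normalized by loess in limma 3.58.1 with R 4.3.3 (packages statmod 1.5.0 and data.table, the latter in version 1.17.8). Non-uniform spots, 21 to 32 an array, were dropped; 0 were saturated. Probes had to be well above background on 3 of the 4 arrays in mutant or control RNA (23202 were), and the brightest kept probe stood for a gene. Genotype by dye orientation and a dye term were fitted (eBayes, 2 residual and 4.60 prior degrees of freedom), with Benjamini-Hochberg adjustment over 18416 genes at 0.05. SDs are of the 4 array ratios and include the dye effect. Channel levels are log2 after loess and Aquantile. Of the 92 probes, 90 carry an accession that RefSeq (GRCm38.p6) pairs with the same symbol, and 2 had no match. Probe coordinates are those of the files (mm9). The steps were tested on simulated data. Per-array values are given for called genes of 1 sign on all arrays and at least 1.5-fold, up to 5 in a family. Other per-array values, those of the repeat probes included, were chosen after they were seen. Figures were drawn with matplotlib 3.10.9 (Python 3.11.15, pandas 2.3.3).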

Additional observations from a re-analysis of the deposited data

Results flagged for a closer look

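In 8 of the 61 tested guidance genes (13.1%), 1 array lay far from the other 3 by Dixon's test, which chance flags in about 1 of 20 groups. The share flagged among all tested genes was not computed, and the array ratios include the dye effect. The 13.1% is therefore not shown to be particular to guidance genes. Replicate 4 was the array that stood apart in 6 of them. Its log2 ratio was -0.256 for Sema4c, -0.245 for Sema6d, -0.284 for Epha5 and -0.25 for Ephb3, the 4 genes read by TG repeat probes, with the other arrays at 0.13 to 0.22. For Unc5b it was -0.721 against -0.26 to -0.19, and for Unc5cl -0.529 against -0.67 on each of the others. Robo2 was at 0.477 on replicate 1 against 0.67 to 0.70, and Sema6b at -0.078 on replicate 2 against -0.31 to -0.29.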

How the results depend on the processing

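Without the repeat probes 17 guidance genes were higher and 12 lower, and without Unc5cl 18 and 11, settings chosen after the data were seen. With 1 array left out, lower guidance genes numbered 6 to 12 and higher ones 14 to 23, higher effectors 5 to 8, lower effectors 1 to 4, lower other cues 0 to 1, and all genes 1560 to 2492 higher and 1026 to 1785 lower. Without the dye term 1 effector was lower, where 24.2% of all genes were called in either direction. With median centring 8 guidance genes were lower, and 2 differed between the sexes where 0 did under loess. Under that centring 41.0% of guidance genes and 18.8% of all genes were called in either direction. The Tbx2 ratio ran from -0.062 without replicate 2 to 0.19 without replicate 4 and was called in neither. The scanner software's own ratios, and the series value table, made falls larger, among them Epha3 at -0.82, Sema3d at -0.43 and Sema6b at -0.38. These were not the only genes to move outward. Across the 13 alternatives Unc5cl reached -0.79 and Ntn1 2.02. Efnb2 fell to 0.16 without replicate 2, and Ephb4 to 0.32 as the mean of its probes. The cause of these shifts was not tested. The log2 ratios are paired by construction, since each array sets a mutant against its control. No paired analysis was possible beyond that, because the replicate number is that of the array and leaves no further replicate block to fit. All arrays share 1 group, and dim genes such as Sema3d, close to background, limit what small ratios can show.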
